A study of Homo sapiens with 5 samples.

Results

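The syndecans and the glypicans are the main families of heparan sulfate proteoglycans on animal cell surfaces, and their transcripts were followed here in BT474 cells that survived a kinase inhibitor. The genes were taken by name, as the 4 syndecans (SDC1 to SDC4) and the 6 glypicans (GPC1 to GPC6), and all 10 were found among the 18512 gene symbols of the deposited table. This choice was made with earlier results of these data known, among them the rise of SDC2. BT474 is an established breast cancer line of luminal type with amplified HER2. Parental cells (2 libraries) were grown in 0.01% DMSO without drug. Persister cells (3 libraries) were those left after 9 days under lapatinib at 2 µM, which blocks the kinases HER2 and EGFR, with the same amount of DMSO. The libraries are described as biological replicates of 1 cell line, and polyadenylated RNA was sequenced without keeping strand.

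A syndecan is a protein that spans the membrane, with heparan sulfate chains on its outer part and a short cytoplasmic tail that binds scaffold and cytoskeletal proteins. A glypican is held in the outer leaflet by a glycosylphosphatidylinositol (GPI) anchor and carries its chains close to the membrane. The sulfated chains bind growth factors and morphogens such as FGFs, Wnts and Hedgehogs and present them to their receptors, and the core proteins can be released from the cell by proteases or, for glypicans, by lipases. In mammary epithelium SDC1 and SDC4 are the usual syndecans, while SDC2 is better known from mesenchymal cells and SDC3 from the nervous system.

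Each value below is the authors' single FPKM value for a group (fragments per kilobase of transcript and of total mapped fragments), so it carries no SD or n, and the levels of different genes can be compared per length. The depth of the libraries is unknown because the table holds no counts and no value per library. A gene is called when the q-value in the authors' deposited table is under 0.05. All 10 genes were among the 13617 that their test covered (q-value below 1). Genes outside it were not all of low level, NRP1 and ITGAV being examples. Differences are persister minus parental on the log2(FPKM + 1) scale, which understates the change of genes with low values. The median difference was -0.12 over the 10160 tested genes with at least 1 FPKM in both groups. The sum of FPKM over all rows was 333324 in parental and 260213 in persister cells, so a rescaling to equal sums raises every log2 ratio by 0.357. In bulk RNA, a change in the number of cells that express a gene and a change in RNA per cell cannot be told apart. Nor can the action of lapatinib itself be told apart from arrest of growth or from the survival of some cells.

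Persister cells held more syndecan transcript than parental cells, and its makeup differed. SDC2, SDC3 and SDC4 rose, and SDC1 fell. Among glypicans, GPC1, GPC5 and GPC6 rose, GPC2 and GPC4 fell, and GPC3 was not called. By the q-values of the authors' deposited table, 6 of the 10 members were thus called higher and 3 lower, where 30.9% of all tested genes were called higher and 39% lower (69.9% in either direction). With FPKM rescaled to equal sums and the q-values kept as deposited, the same 9 calls kept their directions. Over all tested genes 38.3% were then higher and 31.6% lower. The median difference of the 10 members was 0.31, against -0.04 for all tested genes. At q under 0.01, 5 members were higher and 3 lower, against 26.9% and 35.2% of tested genes. With at least 1 FPKM in 1 or both groups, 4 members were higher and 3 lower, against 28.8% and 44.2% of the genes tested there. Only SDC2 was called with a difference of 1 or more on the log2(FPKM + 1) scale as deposited. Of all tested genes, 2.98% were called and differed that much upward, and 6.01% downward. After rescaling to equal sums, SDC3 (1.19) and SDC4 (1.21) passed 1 as well, and the share of all tested genes at that setting was not computed.

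**Figure D1:**
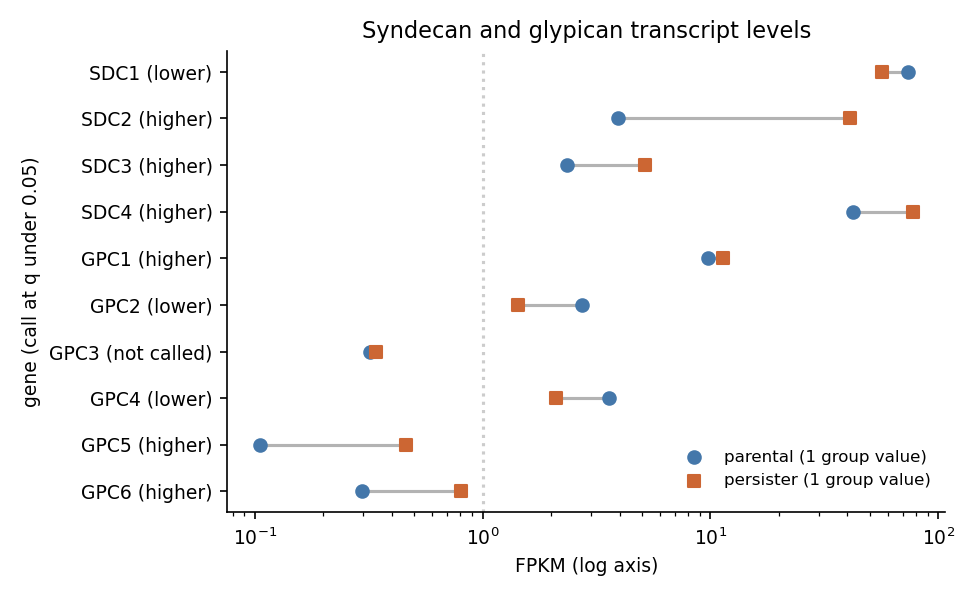
FPKM (log axis) of each syndecan and glypican gene in parental cells (circles) and persister cells (squares), 1 group value each without error bars; the dotted line marks 1 FPKM, and the call at q under 0.05 in the authors' deposited table is given beside each name. SDC2 has the longest line, from 3.94 to 40.9 FPKM, and GPC3, GPC5 and GPC6 lie under 1 FPKM in both groups.

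SDC1 (CD138), the syndecan of simple and stratified epithelia, was the most abundant member in parental cells. Parental cells had 74.1 FPKM and persister cells 56.8 FPKM, above 93.9% of tested genes in each group. It fell by 0.38 on the log2(FPKM + 1) scale, with q = 3.7e-06 in the authors' deposited table. After rescaling to equal FPKM sums that difference was -0.02, so the fall of SDC1 was about as large as that of the FPKM sum as a whole.

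SDC4, a widely expressed syndecan that works with integrins at focal adhesions, stood at 42.2 FPKM before and 77.4 FPKM after the drug. The ratio was 1.83 and the difference 0.86. The authors' deposited table lists its q-value as 0, as it does for SDC2, SDC3 and GPC6. The difference was 1.21 after rescaling to equal sums. SDC4 and SDC1 therefore exchanged places: the level of SDC1 was 1.75 times that of SDC4 in parental cells, and that of SDC4 was 1.36 times that of SDC1 in persister cells. The annotation holds a processed pseudogene of SDC4 (SDC4P), and the sources used here do not say how reads shared with it were assigned.

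Because the 2 abundant syndecans moved apart, the 250 bases before their annotated starts are shown, taken from RefSeq (GRCh38.p14, a later build than the hg18 of the authors' processing). SDC1 has a pair of starts in that table, and the deposited value combines both of its transcripts. Capitals mark every match on either strand to the TATA box TATAAA, the CCAAT box CCAAT, the GC box GGGCGG, the FOXO motif GTAAACA, the AP-1 motif TGANTCA, the NF-kB-type motif GGGNNTTCC or the E-box CACGTG, where matches of different motifs may overlap.
SDC4, chr20:45348425-45348674, minus strand: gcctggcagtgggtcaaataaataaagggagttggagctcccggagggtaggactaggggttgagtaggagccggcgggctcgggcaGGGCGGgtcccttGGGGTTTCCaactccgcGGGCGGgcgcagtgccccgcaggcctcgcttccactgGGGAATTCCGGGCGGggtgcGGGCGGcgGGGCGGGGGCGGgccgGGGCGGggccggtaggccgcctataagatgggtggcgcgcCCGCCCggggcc
SDC1, chr2:20225131-20225380, minus strand: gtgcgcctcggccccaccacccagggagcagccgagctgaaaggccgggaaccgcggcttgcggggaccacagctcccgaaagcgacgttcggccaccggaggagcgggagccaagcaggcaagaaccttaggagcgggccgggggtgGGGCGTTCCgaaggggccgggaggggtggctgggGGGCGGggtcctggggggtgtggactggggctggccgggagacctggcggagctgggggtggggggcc
SDC1, chr2:20225476-20225725, minus strand: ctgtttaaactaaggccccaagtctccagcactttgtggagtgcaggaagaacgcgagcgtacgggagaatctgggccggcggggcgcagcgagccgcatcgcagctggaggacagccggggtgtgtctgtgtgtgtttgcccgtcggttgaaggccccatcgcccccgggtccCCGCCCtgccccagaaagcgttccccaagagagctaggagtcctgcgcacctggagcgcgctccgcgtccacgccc
The SDC4 window held 8 GC boxes and 2 matches to the NF-kB-type motif, at 150 and 96 bases before the start. The nearer window to the SDC1 gene body held 1 GC box and 1 NF-kB-type match, and the farther one 1 GC box. Of all 35116 windows of the same length in the table, 42.6% held a GC box and 5.78% the NF-kB-type motif. Neither gene held a TATA box, CCAAT box, FOXO, AP-1 or E-box match, found in 10.7%, 32%, 2.98%, 6.57% and 6.34% of all windows. Matches of letters are a description and do not show binding. GC content was 73.6% for SDC4 and 75.2% and 66.4% for SDC1, against a median of 58% for all windows.

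SDC2 had the largest difference of the 10 genes. Parental cells had 3.94 FPKM and persister cells 40.9 FPKM, a ratio of 10.4 and a difference of 3.08. That difference ranked 8 from the top among the 13617 tested genes, and the rise was known when the genes were chosen. SDC2 stood above 39.0% of tested genes in parental and above 90.7% in persister cells, so a low transcript in the first group was an abundant one in the second. The level of SDC1 was 18.8 times that of SDC2 in parental cells and 1.39 times in persister cells. The called genes nearest to SDC2 by Euclidean distance over the log2(FPKM + 1) values of the 2 groups were CALCOCO1 (distance 0.18, 3.38 and 42.6 FPKM), NPY1R (distance 0.24, 3.55 and 47.2 FPKM) and PIK3IP1 (distance 0.24, 4.45 and 47.1 FPKM). With 2 values per gene this measure says only that the levels lie close together.

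SDC3, the largest syndecan protein, was the rarest of its family in both groups. Parental cells had 2.34 FPKM and persister cells 5.15 FPKM, a ratio of 2.20 and a difference of 0.88. SDC3 and SDC4 thus had similar differences at levels that lay far apart.

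Added over the family, syndecan transcript was 122.6 FPKM in parental cells and 180.3 FPKM in persister cells, a ratio of 1.47 that has no test. SDC1 made up 60.4% of the parental sum and 31.5% of the persister sum. SDC4 went from 34.4% to 42.9% and SDC2 from 3.22% to 22.7%, while SDC3 was 1.91% and 2.86%. The shares within a family do not depend on scaling between groups. The log2 ratio of the syndecan sum was 0.56 as deposited, 0.91 after rescaling to equal sums and 1.35 without SDC1.

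**Figure D2:**
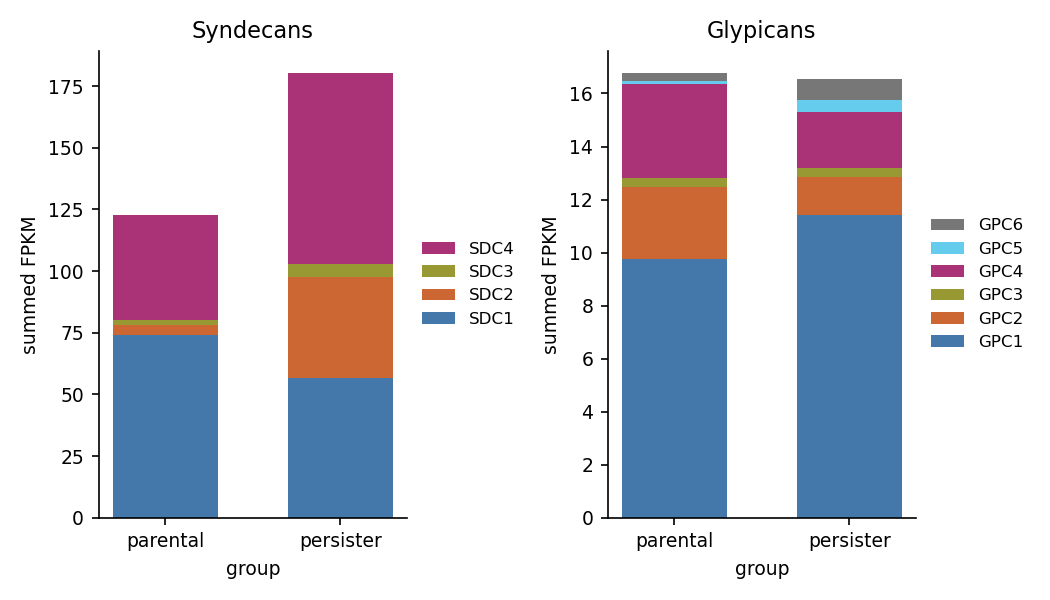
Summed FPKM of syndecans (left) and glypicans (right) in parental and persister cells, stacked by gene from 1 group value each, with no error bars; the vertical axes start at 0 and differ between panels. SDC1 takes 60.4% of the parental and 31.5% of the persister syndecan bar, and the glypican bars are of nearly equal height at 16.8 and 16.6 FPKM.

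GPC1, a widely expressed glypican that binds FGFs and other heparin-binding factors, was the main glypican in both groups. Parental cells had 9.74 FPKM and persister cells 11.4 FPKM, with a ratio of 1.17 and a difference of 0.21. Its q-value of 0.0174 in the authors' deposited table is under 0.05 and above 0.01, so this call does not hold at the stricter threshold.

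GPC2 and GPC4 fell. GPC2, known from the developing nervous system, stood at 2.74 FPKM in parental cells and 1.44 FPKM in persister cells, with a difference of -0.62 and q = 2.14e-12 in the authors' deposited table. GPC4, a glypican linked to Wnt signalling and synapse formation, stood at 3.57 and 2.10 FPKM, with a difference of -0.56 and q = 9.34e-12 in the authors' deposited table. After rescaling to equal FPKM sums these differences were -0.40 and -0.31.

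GPC3, GPC5 and GPC6 lay under 1 FPKM in both groups. GPC5 stood at 0.105 FPKM in parental cells and 0.461 FPKM in persister cells, a ratio of 4.38, with q = 1.25e-14 in the authors' deposited table. GPC6, whose loss causes a skeletal dysplasia, stood at 0.295 and 0.807 FPKM, a ratio of 2.74. On the log2(FPKM + 1) scale the differences of GPC5 and GPC6 were 0.40 and 0.48, and with a pseudocount of 0.1 they were 1.45 and 1.20. Their persister levels were above those of 15.7% and 20.1% of tested genes. GPC3, the glypican whose loss causes an overgrowth syndrome, stood at 0.320 and 0.340 FPKM, with q = 0.813 in the authors' deposited table. With no value per library, an interval for the difference of GPC3 could not be given.

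GPC5 and GPC6 are next to each other among the coding genes of chromosome 13, and GPC4 and GPC3 among those of the X chromosome (RefSeq, GRCh38.p14). The neighbours on chromosome 13 both rose, and on the X chromosome GPC4 fell while GPC3 was not called. Exons of GPC6 overlap an antisense RNA in the annotation (GENCODE 29), and without strand its reads cannot be told apart from those of GPC6. No other member had an exon overlap with another annotated gene. The 250 bases before the starts of GPC5 and GPC6, shown because these neighbours changed in the same direction, differed in base composition.
GPC5, chr13:91398371-91398620, plus strand: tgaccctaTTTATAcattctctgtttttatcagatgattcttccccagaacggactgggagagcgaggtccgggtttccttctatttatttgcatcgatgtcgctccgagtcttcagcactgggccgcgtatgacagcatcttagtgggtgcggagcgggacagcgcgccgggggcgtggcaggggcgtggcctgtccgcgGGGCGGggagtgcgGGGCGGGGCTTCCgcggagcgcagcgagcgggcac
GPC6, chr13:93226557-93226806, plus strand: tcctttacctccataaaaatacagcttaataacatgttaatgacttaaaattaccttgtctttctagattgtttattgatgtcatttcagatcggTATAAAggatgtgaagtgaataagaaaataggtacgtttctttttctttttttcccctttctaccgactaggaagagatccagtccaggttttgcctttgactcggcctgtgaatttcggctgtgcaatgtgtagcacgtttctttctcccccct
Capitals mark the same motifs as for SDC4 and SDC1. GPC5 had a GC content of 62.4% with 25 CpG dinucleotides, 2 GC boxes and 1 NF-kB-type match that overlaps the nearer of them. GPC6 had a GC content of 37.6% with 6 CpG dinucleotides and no GC box, against a median of 11 CpG dinucleotides in all windows. Each held 1 match to the TATA box, at 242 and 155 bases before the start. Of the 9 windows that the table holds for 8 members, 8 had a GC box, against 42.6% of all windows. The NF-kB-type motif was in 3, against 5.78%, the TATA box in 2, against 10.7%, and the CCAAT box in 1, against 32%. A FOXO, AP-1 or E-box match was in 0, against 2.98%, 6.57% and 6.34%. SDC1 counts with both of its windows, and with 9 windows neither the matches nor the absences say much. All of these windows but that of GPC6 lay above the median GC content of 58%, and the part of base composition in these counts was not tested. A window for SDC2 and one for GPC3 were not used here.

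Added over the family, glypican transcript was 16.8 FPKM in parental cells and 16.6 FPKM in persister cells. The log2 ratio of this sum was -0.02 as deposited, 0.34 after rescaling to equal sums and -0.45 without GPC1, so its direction depends on scaling. GPC1 made up 58.1% of the parental and 68.9% of the persister sum, and GPC2 and GPC4 together 37.6% and 21.4%. GPC5 and GPC6 went from 0.627% to 2.78% and from 1.76% to 4.87%. The syndecan sum was 7.31 times the glypican sum in parental cells and 10.9 times in persister cells.

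Placed in order of FPKM, the parental levels were SDC1, SDC4, GPC1, SDC2, GPC4, GPC2, SDC3, GPC3, GPC6 and GPC5. In persister cells the order was SDC4, SDC1, SDC2, GPC1, SDC3, GPC4, GPC2, GPC6, GPC5 and GPC3. Whether neighbours in these orders differ beyond the spread between libraries could not be judged from 1 value per group. Across the 9976 genes with at least 1 FPKM in both groups and a known transcript length, the log2 ratio tended to be higher for longer transcripts (Spearman's rho = 0.24) and lower for abundant ones (Spearman's rho = -0.25). These are descriptions across genes, which are not independent replicates. Among the members the transcript lengths ran from 1580 bases (SDC3) to 6467 bases (GPC6). SDC2 had 3759 bases and SDC1 3291 bases, and the part of length in the members' values was not tested.

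**Figure D3:**
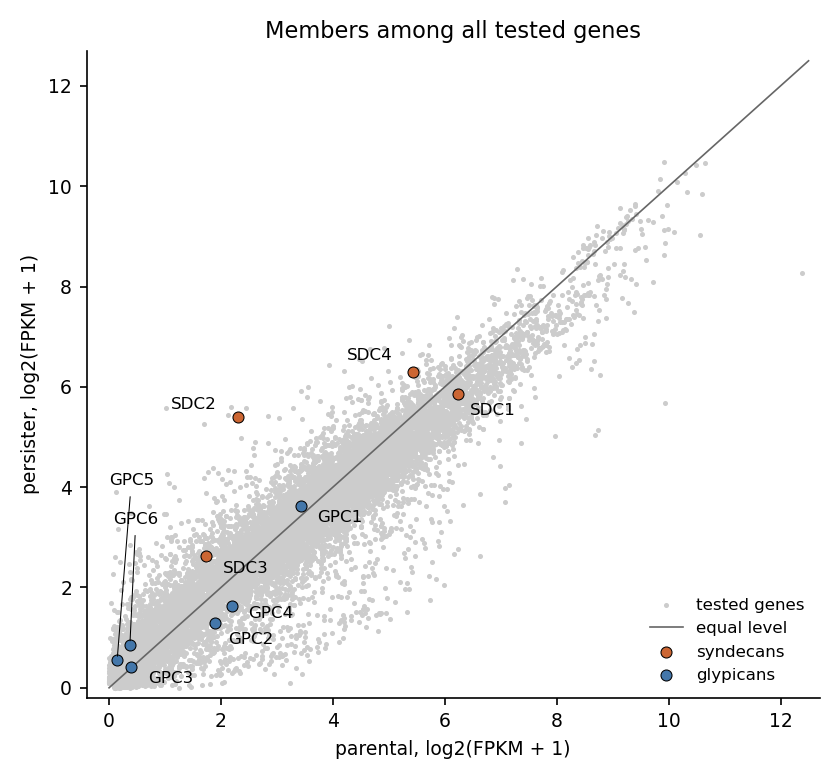
Parental (horizontal) against persister (vertical) level as log2(FPKM + 1) for the 13617 tested genes (grey), the 4 syndecans and the 6 glypicans, 1 group value each; the line marks equal level. SDC2 lies far above the line, with a difference of 3.08, and SDC1, GPC2 and GPC4 lie below it.

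The counts below are to be read against the 30.9% of all tested genes that were called higher and the 39% called lower in the authors' deposited table, or 38.3% and 31.6% after rescaling to equal sums. The lists were chosen with earlier results of these data known. Of the linker and chain polymerase genes, 3 of 7 and 1 of 4 were called in either direction, against 69.9% of all tested genes. The linker that joins each chain to its core protein is started by the xylosyltransferases XYLT1 and XYLT2. XYLT1 rose from 0.429 to 1.51 FPKM, and XYLT2, the more abundant one, from 40.3 to 49.3 FPKM. The xylose kinase FAM20B fell from 9.28 to 6.495 FPKM, and the other 4 of 7 linker genes were not called. Of the 4 tested chain polymerase genes, 0 were called higher and 1 lower, EXTL3, at 4.09 and 2.64 FPKM. EXT1 and EXT2, the subunits of the main polymerase, stood at 8.17 and 9.23 FPKM and at 18.7 and 18.6 FPKM, and neither was called. Their q-values in the authors' deposited table were 0.0698 and 0.925.

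Enzymes that set the sulfation pattern went both ways. Of 12 tested genes for modification of the growing chain, 6 rose (50%, against 30.9% of all tested genes) and 3 fell (25%, against 39%), with a median of 0.17. NDST2, an N-deacetylase and N-sulfotransferase, rose from 4.38 to 6.99 FPKM. The 6-O-sulfotransferase HS6ST2 fell from 8.96 to 4.39 FPKM, and the 3-O-sulfotransferase HS3ST6 from 2.61 to 1.21 FPKM. None of the other tested 6-O- and 3-O-sulfotransferase genes was called lower. HS6ST1, at 10.3 and 11.6 FPKM, was not called, and HS6ST3 rose from 0.570 to 0.804 FPKM. Among 3-O-sulfotransferases, HS3ST3A1 rose from 0.167 to 0.663 FPKM and HS3ST3B1 from 0.331 to 0.965 FPKM. NDST4, the other gene called lower, stood at 0.145 and 0.0687 FPKM. Of 8 tested genes for sugar and sulfate donors, 2 rose (25%) and 3 fell (37.5%), shares near those of all tested genes, with a median of -0.08. UGP2, which makes UDP-glucose, fell from 40.6 to 21.4 FPKM and the nucleotide sugar transporter SLC35D1 from 4.17 to 2.41 FPKM. The sulfate transporter SLC26A2 rose from 0.916 to 1.62 FPKM, and its exons overlap TIGD6 on the opposite strand. PAPSS1, which makes the sulfate donor PAPS, rose from 17.4 to 21.1 FPKM, and UXS1, which makes UDP-xylose, fell from 13.1 to 11.1 FPKM, a difference of -0.22 that turned to 0.11 after rescaling to equal sums.

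Among the 10 tested genes that edit or break down finished chains, 8 rose (80%, against 30.9% of all tested genes) and 1 fell (10%, against 39%), and the median was 0.29. SULF2, an extracellular enzyme that removes 6-O-sulfates from heparan sulfate, rose from 3.73 to 19.0 FPKM. The lysosomal enzymes IDUA and HGSNAT rose from 3.14 to 12.4 FPKM and from 5.68 to 12.9 FPKM. Exons of SULF2 overlap NCOA3, and exons of IDUA overlap SLC26A1, on the opposite strand. NCOA3 stood at 100.4 and 105.4 FPKM and SLC26A1 at 2.53 and 4.05 FPKM, and their part in these values was not tested. NAGLU, the 1 gene called lower, stood at 11.6 and 9.34 FPKM, a difference of -0.28 that turned to 0.04 after rescaling to equal sums. Chondroitin and dermatan sulfate enzymes, which act on the other chains that syndecans can carry, were called higher in 4 (28.6%) and lower in 5 (35.7%) of 14 tested genes, near the 30.9% and 39% of all tested genes, with a median of 0.11. CHST15 rose from 5.53 to 10.3 FPKM and the epimerase DSE from 0.211 to 0.915 FPKM, while the sulfotransferase CHST11 fell from 1.498 to 0.615 FPKM. CHPF2 had the largest difference of the list (0.83, at 21.8 and 39.6 FPKM) but was not called, with q = 0.736 in the authors' deposited table. DSE has an exon overlap with TSPYL1 on the opposite strand, which stood at 27.3 and 30.9 FPKM.

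Among the 27 tested genes for the GPI anchor, which glypicans need, 13 were called lower (48.1%, against 39% of all tested genes) and 5 higher (18.5%, against 30.9%). The median was -0.21 as deposited and turned to 0.14 after rescaling to equal sums, as did the sign of 3 of the 13 (PIGO, PIGS and DPM1). PIGU, a subunit of the GPI transamidase, fell from 94.4 to 45.0 FPKM. The acyltransferase PIGW fell from 30.6 to 15.6 FPKM and PIGX, a partner of the first mannosyltransferase, from 13.9 to 7.34 FPKM. PIGW overlaps MYO19, which stood at 46.3 and 20.2 FPKM, on the opposite strand, and PIGU overlaps NCOA6 on its own strand. The 5 that rose were PGAP3, at 186 and 265 FPKM the most abundant of the list, and PIGL, PIGQ, MPPE1 and PGAP1.

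Genes around the release of core proteins were called higher in 8 (53.3%, against 30.9% of all tested genes) and lower in 3 (20%, against 39%) of 15 tested, with a median of 0.25. The proprotein convertase FURIN rose from 2.60 to 8.90 FPKM, the metalloprotease inhibitor TIMP2 from 3.40 to 8.37 FPKM and the membrane metalloprotease MMP16 from 0.180 to 0.905 FPKM. MMP16, GPLD1, TIMP3 and PCSK5 among those called higher, and MMP14 among those called lower, were under 1 FPKM in both groups. This list holds proteases, lipases and inhibitors together, so the count has no single direction of effect on shedding. The 3 called lower were ADAM9, MMP14 and GDE1, of which GDE1 had a difference of -0.29 that turned to 0.05 after rescaling to equal sums. Whether GDE1 acts on syndecans or glypicans was not tested. Of the cytoplasmic partners of syndecans, 8 of 14 tested were called lower (57.1%, against 39% of all tested genes) and 2 higher (14.3%, against 30.9%). The median was -0.24 as deposited and 0.10 after rescaling to equal sums, which also turned the sign of 3 of the 8 (EZR, CTTN and RAC1). Radixin (RDX), a linker between membrane proteins and actin, fell from 6.76 to 2.34 FPKM, the RAC1 exchange factor TIAM1 from 6.001 to 3.77 FPKM and the kinase SRC from 2.48 to 1.597 FPKM. The 2 that rose were PDCD6IP, from 24.1 to 27.8 FPKM, and RAB5A, from 33.1 to 38.0 FPKM.

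Of 11 tested genes for other proteoglycans, 8 were called higher (72.7%, against 30.9% of all tested genes) and 2 lower (18.2%, against 39%), with a median of 0.20. COL18A1, a basement membrane collagen that carries heparan sulfate, rose from 3.54 to 10.7 FPKM. CD44, which carries such chains in some splice forms, rose from 2.08 to 4.59 FPKM and the matrix proteoglycan AGRN from 17.5 to 27.8 FPKM. TGFBR3, CSPG4, SPOCK1 and SPOCK2, also called higher, were under 1 FPKM in both groups. NRP1 had the largest difference of the list (2.66, at 2.64 and 22.0 FPKM), but the authors' test did not cover it, so it is not in these counts. The 2 called lower were APLP2, at 130 and 97.6 FPKM, and VCAN, at 0.103 and 0.00799 FPKM. COL18A1 overlaps SLC19A1 on the opposite strand, which stood at 13.6 and 6.16 FPKM.

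Among factors that bind heparan sulfate, 11 of 18 tested were called higher (61.1%, against 30.9% of all tested genes) and 5 lower (27.8%, against 39%), with a median of 0.20, but the 2 most abundant in parental cells, MDK and BMP7, fell. Midkine (MDK), a heparin-binding cytokine, fell from 389 to 80.9 FPKM and BMP7 from 140.1 to 54.0 FPKM. PDGFA rose from 5.22 to 13.7 FPKM. FGF1, WNT4, SHH and TGFB2 among those called higher, and WNT5A among those called lower, were under 1 FPKM in both groups. Among receptors that use heparan sulfate or glypicans, 11 of 26 tested were called higher (42.3%) and 8 lower (30.8%), with a median of 0.01, and rescaling to equal sums turned the sign of 3 of the 8 (FGFR3, ITGB5 and ITGB4). FGFR4, an FGF receptor, fell from 40.4 to 6.998 FPKM, the IGF receptor gene IGF1R rose from 8.09 to 24.7 FPKM and the Wnt receptor gene FZD2 from 0.762 to 3.24 FPKM. Over all 12 lists together, 67 of 166 tested genes were called higher (40.4%, against 30.9% of all tested genes) and 53 lower (31.9%, against 39%). After rescaling to equal sums the counts were 80 and 40, where the shares over all tested genes moved to 38.3% and 31.6%. With at least 1 FPKM in 1 or both groups, 47 list genes were called higher and 47 lower. Among all genes tested at that setting the shares were 28.8% and 44.2%, and those of the lists were not computed.

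**Figure D4:**
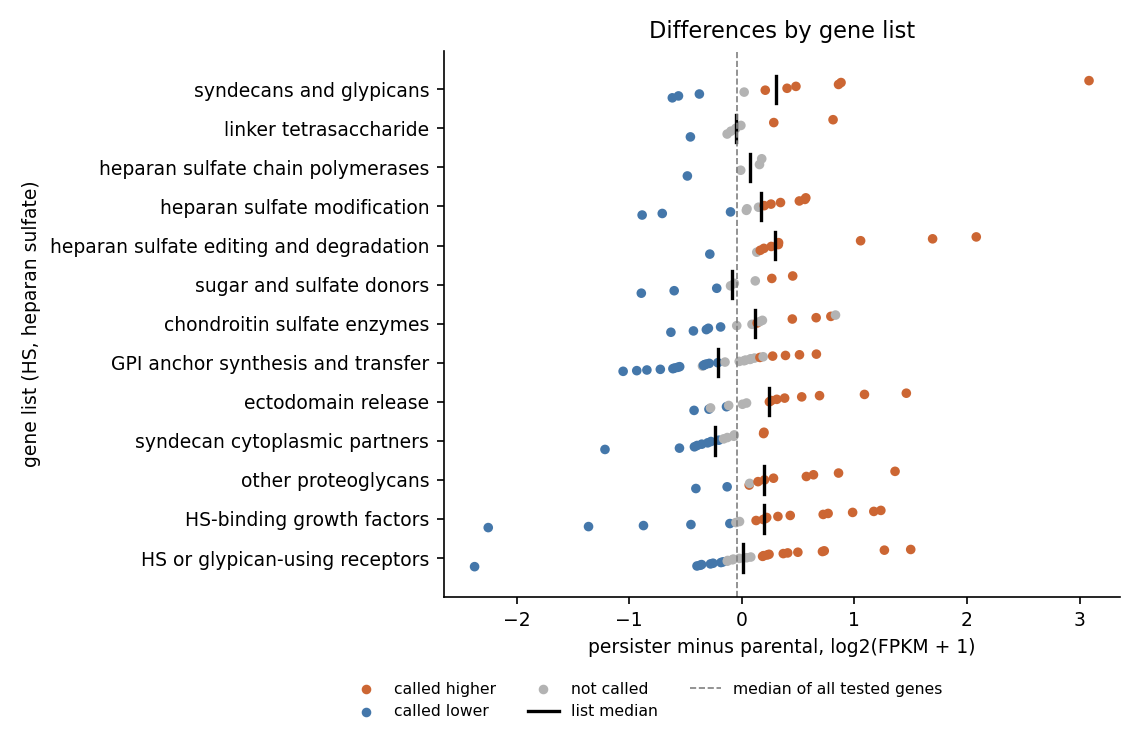
Difference between persister and parental cells in log2(FPKM + 1) for the tested genes of each list, 1 point per gene, coloured by call at q under 0.05 in the authors' deposited table; black bars are list medians and the dashed line is the median of all tested genes (-0.04). SDC2 is the point at 3.08, and the list for editing and degradation has 8 of 10 genes called higher.

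The labelled cell type was checked against markers. All 9 luminal epithelial markers were present in both groups, from 12.4 to 841 FPKM in parental and from 18.2 to 623 FPKM in persister cells, with 7 called lower (77.8%, against 39% of all tested genes). GATA3 rose from 14.1 to 43.3 FPKM and ESR1 from 12.4 to 18.2 FPKM. The list median was -0.43 as deposited and -0.08 after rescaling to equal sums, where FOXA1 turned from -0.21 to 0.14. Because SDC2 is known from mesenchymal cells, fibroblast markers were read beside it. Of 9 fibroblast markers, COL1A1 stood at 13.4 and 8.73 FPKM, and the other 8 were under 1 FPKM in both groups. DCN was listed at 0 in parental cells and at 0.00205 FPKM in persister cells, PDGFRA at 0.00103 and 3.51e-04 FPKM, and THY1 at 0 in both. The summed level of the list was 13.5 FPKM in parental cells and 8.75 FPKM in persister cells, nearly all of it COL1A1, and the part of such cells in the SDC2 value was not tested. Endothelial markers summed to 1.19 and 0.144 FPKM, and the 6 immune markers to 7.06 and 6.05 FPKM, nearly all from CD68 and LYZ.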

How the data were processed

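Polyadenylated RNA from 2 parental and 3 persister libraries of BT474 cells was sequenced by the authors. Tools named in the submitters' processing notes are TopHat2 2.0.6, Cufflinks and Cuffdiff 2.0.2, with CASAVA 1.8 and the build hg18, and the sources used here give no settings. The deposited table has 18803 rows with 1 FPKM value per group and a q-value, per the file headers. The q-value, deposited with the FPKM, comes from the authors' comparison of the groups and is listed as 0 in 2712 rows and otherwise 1.2e-15 or more. Libraries cannot be seen separately, so no SD, interval or detection limit was computed, and the planned limma fit on values per library was replaced by the authors' q-value (called under 0.05, tested where below 1).

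Where a symbol stood on several rows, the one of highest mean FPKM was kept, and 25 of 26 spreadsheet dates were given symbols through RefSeq identifiers. Each member has 1 row. Differences are log2(FPKM + 1). The members and the 12 pathway and 4 marker lists were chosen with earlier results of these data known, among them the rise of SDC2. Lists were matched by symbol, and SLC35B3, PIGY, SDCBP2 and SYNJ2BP were not analysed here. Named genes were the members, up to 3 called genes per list with the largest difference (or the 2 with the highest mean FPKM where fewer than 2 were called), and the 3 called genes nearest to SDC2. Marker genes and some of the genes that overlap a named gene were named beside these. So were genes that make up a count of 5 or fewer, which were chosen after their values were seen. NRP1, ITGAV, CHPF2, HS6ST1, HS6ST3, HS3ST3A1 and HS3ST3B1 were also named after their values were seen. The same holds for called list genes given as under 1 FPKM in both groups. Transcript lengths and exon overlaps came from GENCODE 29 and promoter windows from RefSeq. Exons of XYLT1, XYLT2, NDST2, PIGX, TIMP2, MMP16, CD44 and AGRN also overlap other annotated genes, which are not named above. Python 3.11.15, pandas 2.3.3 and scipy 1.17.1 were used, and the functions were tested on simulated data. Alternatives were another pseudocount, an FPKM minimum, stricter calls, summed rows, median centring and rescaling to equal sums.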

Additional observations from a re-analysis of the deposited data

How the results depend on the processing

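The 9 calls among syndecans and glypicans kept their directions with median centring and with rescaling to equal FPKM sums. Only the sign could change there, because the deposited q-values were kept, and SDC1 was at -0.02 after rescaling. A pseudocount of 0.1 and summed rows could not change a direction, since a pseudocount keeps the sign and each member has 1 row. With at least 1 FPKM in 1 or both groups, 4 members were called higher and 3 lower, and at q under 0.01 5 were higher and 3 lower, GPC1 being the one lost. Requiring a difference of at least 1 as well left 1 member called higher (SDC2) and 0 lower, and 10 and 5 genes of the pathway lists, since the requirement removes smaller changes. That result is for values as deposited with a pseudocount of 1. SDC3 and SDC4 also passed 1 after rescaling to equal sums, and SDC3 (1.11), GPC5 (1.45) and GPC6 (1.20) with a pseudocount of 0.1. The log2 ratio of the syndecan sum was 0.91 after rescaling to equal sums and 1.35 without SDC1. That of the glypican sum turned from -0.02 to 0.34 after rescaling and was -0.45 without GPC1. The q-values were not recomputed under any scaling. Settings for the pathway lists were chosen after seeing the data. No paired analysis was possible because the table holds 1 value per group, and for the same reason leaving out a replicate was not run. Depth is unknown, so the precision of GPC3, GPC5 and GPC6, the members under 1 FPKM, cannot be stated.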
